A study of Mus musculus with 4 samples.

Results

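Oxidative phosphorylation subunit genes were examined in regulatory T (Treg) cells whose transferrin receptor gene, Tfrc, was floxed or intact. The genes were taken by symbol, as the protein-coding Nduf, Sdh, Uqcr, Cox4 to Cox8, Atp5 and mitochondrially encoded mt-Nd, mt-Co, mt-Cytb and mt-Atp genes with 10 or more counts summed over the 4 libraries. This gave 91 of the 47729 genes listed, of which 15411 reached 10 counts. They comprised 75 nuclear subunit genes, 13 mitochondrially encoded genes and 3 genes that matched by symbol but were not counted as subunits (Cox4nb, Atp5s and Atp5sl). Nuclear genes numbered 35 for complex I, 4 for complex II, 8 for complex III, 13 for complex IV and 15 for complex V. Mitochondrial genes numbered 7 for complex I, 1 for complex III, 3 for complex IV and 2 for complex V. Ndufa4, named for complex I, was counted with complex IV, where its product is found. Of 101 rows with a matching symbol, 1 was a pseudogene and 9 fell under the count limit, 5 of them at 0 in every library.

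RNA was measured in 4 libraries of CD25+YFP+ Treg cells from female C57BL/6 mice. The 2 WT libraries had the genotype Tfrc +/+ Foxp3 YFP-Cre/+, and the 2 libraries labelled TfR1-deficient (TfR1_cKO) the genotype Tfrc fl/fl Foxp3 YFP-Cre/+. All mice thus carried 1 copy of the Foxp3-driven Cre with its YFP reporter on the X chromosome, and through random X inactivation YFP marks those Treg cells in which Cre is active. The labels name the spleen and give no age, and whether a library held 1 mouse or a pool is not given in the sources used here. Replicates are numbered 1 and 2 in each genotype, and p-values measure the spread between these libraries.

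The respiratory chain passes electrons from NADH (complex I) and succinate (complex II) through complex III to oxygen at complex IV, and complex V, the ATP synthase, uses the proton gradient so formed. Iron enters this chain as iron-sulfur clusters in complexes I, II and III and as heme in complexes II, III and IV, so the subunits that bind iron are of particular interest where an iron uptake receptor is deleted. Complex II is encoded wholly in the nucleus, whereas the other complexes combine nuclear products with products of mitochondrial DNA.

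Totals ranged from 10841939 to 17278448 counts per library. The targeted gene Tfrc was at 50.8 and 54.1 CPM (TMM-scaled counts in 1e6) in WT 1 and WT 2 and at 56.1 and 48.3 CPM in TfR1_cKO 1 and TfR1_cKO 2. These counts overlapped between genotypes, and each direction given here rests on the labels. Counts per gene do not show whether the floxed exons were lost. The 6 Treg markers were high in every library, Foxp3 at 114 to 194 CPM, and all 6 had a negative fitted log2 fold change, of which Ctla4 and Cd3e passed an unadjusted p of 0.05 (adjusted p = 0.911 for both in edgeR), where 3.34% of all genes were lower. WT 1 and TfR1_cKO 2 stood apart from the other libraries on a first principal component with 62.6% of the variance. In those libraries the 12 macrophage markers summed to 949 CPM (WT 1) and 3051 CPM (TfR1_cKO 2), against 36.7 CPM (WT 2) and 42.8 CPM (TfR1_cKO 1), and the 6 proliferation genes to 630.5 and 541 CPM against 160.5 and 161 CPM. The 5 erythroid markers tested summed to 20.9 and 112.5 CPM in WT and to 43.2 and 359 CPM in TfR1_cKO. Of the B cell markers Cd79b alone exceeded 4 CPM, at 24.2 to 38.5 CPM. Of the CD8 T cell markers Cd8a was under 1 CPM and Cd8b1 at 10.8 to 12.3 CPM, and of the NK cell markers Ncr1 and Klra8 were under 1 CPM and Klrb1c at 1.78 to 2.85 CPM.

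Genotype had no detectable effect on any single subunit gene at this depth and replication. Of the 91 genes, 88 passed the filter on low counts, and 0 rose and 0 fell at an adjusted p under 0.05 in edgeR's quasi-likelihood test (Benjamini-Hochberg adjustment over 12536 genes), a threshold that 0% of all genes tested passed. The lowest adjusted p among the members was 0.915. Without adjustment 0 members had p under 0.05, where 5.22% of all genes did. DESeq2 called 0 members with or without adjustment, against 0.337% of all genes with an adjusted value and 5.04% of all genes without adjustment. Without WT 2, 8 members were higher at an unadjusted p under 0.05 (Ndufc1, Uqcr11, Ndufa5, Ndufa13, Ndufa2, Cox6c, Uqcr10 and Atp5j2), where 1.78% of all genes were higher. Without TfR1_cKO 2 only Sdhc was lower among the members, where 2.42% of all genes were lower. With WT 1 paired to TfR1_cKO 2 and WT 2 to TfR1_cKO 1, which was chosen after seeing the data and is not given by the labels, 8 members were higher (8.48% of all genes) and 2 lower (9.41% of all genes) at an unadjusted p under 0.05, and 1 passed the adjusted threshold (3.50% of all genes).

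The fitted differences were small. Over the 74 nuclear subunit genes tested, the median log2 fold change was 0.081 and 49 were positive, while over the 11 mitochondrial genes tested it was 0.087 and 8 were positive. The same median over all 12536 genes was 0.0085, and 6401 of them were positive. The median size of the log2 fold change, sign disregarded, was 0.13 in nuclear members, 0.09 in mitochondrial members and 0.21 in all genes tested. Only Ndufc1 and Ndufb2 among the 85 subunit genes tested reached 0.5 in either direction, or 2.35% of them, against 20.3% of all genes tested. The 95% interval of the fold change lay within 2-fold either way in 70 of the 85, and within 1.5-fold either way in 36. For most of these genes the interval thus includes a change of 1.5-fold.

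**Figure D1:**
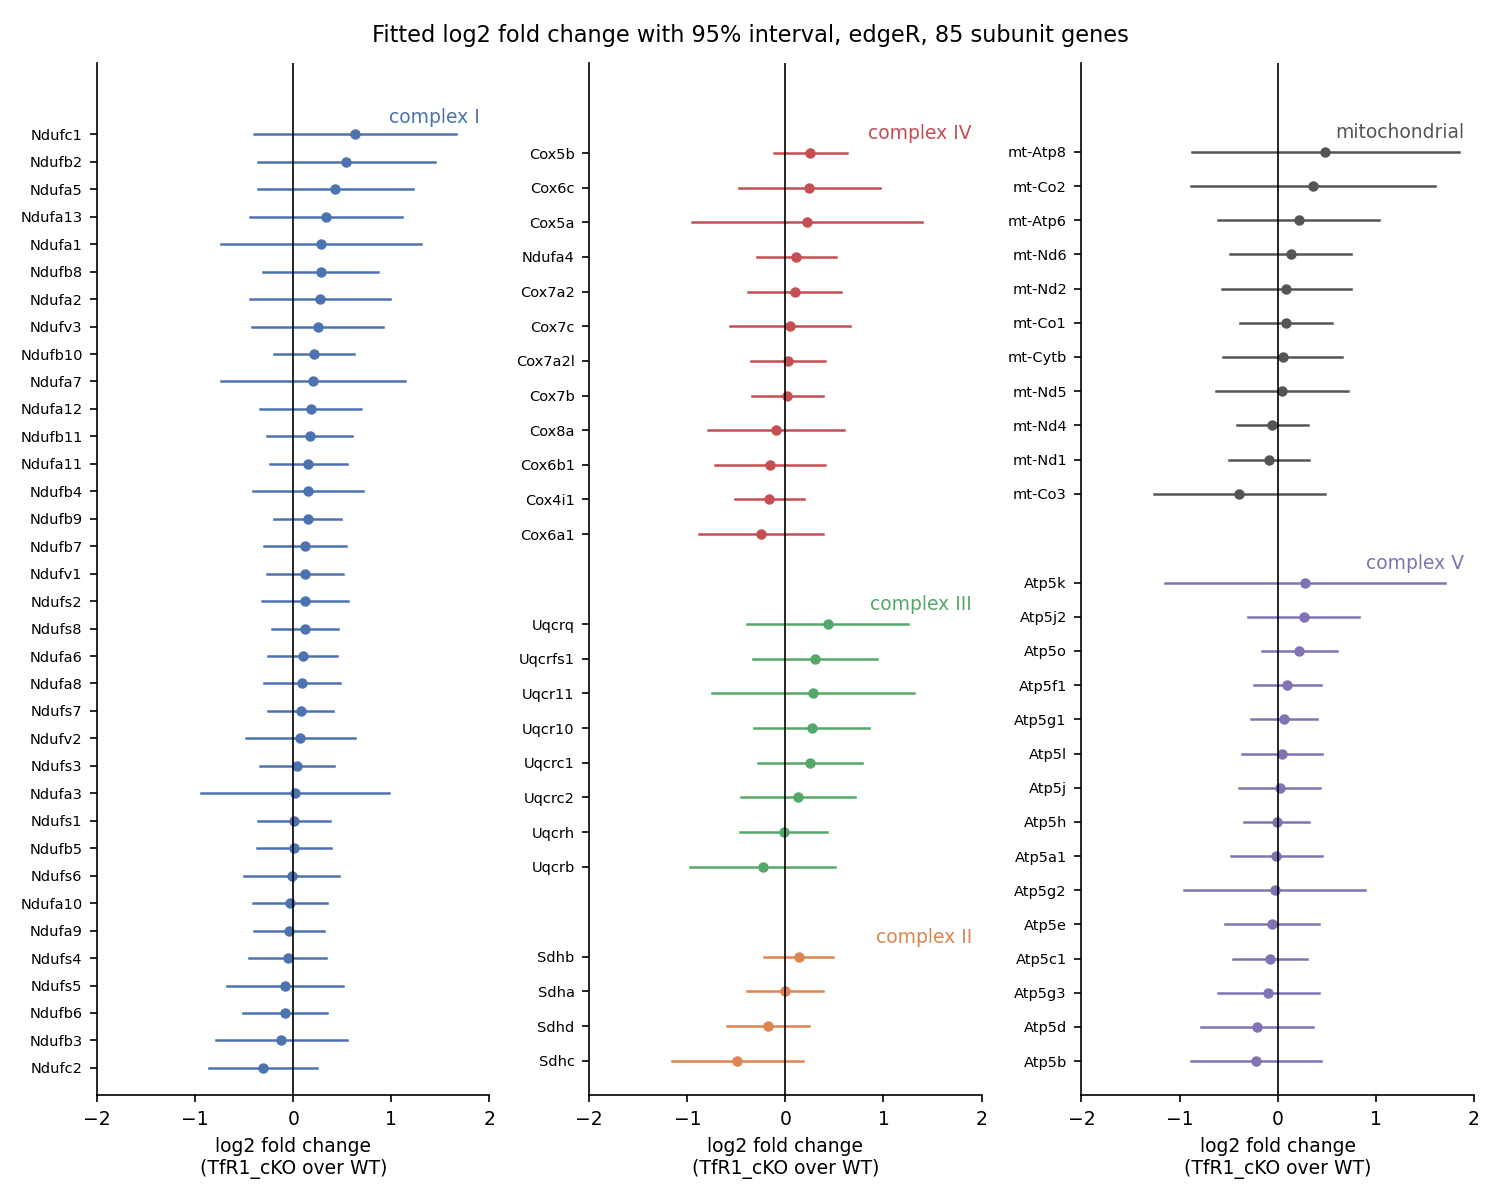
Fitted log2 fold change (x axis, TfR1_cKO over WT) of each of the 85 subunit genes tested, by complex, with points for the edgeR estimate from 2 libraries a genotype and bars for its 95% interval. Every bar crosses 0, and the widest belong to genes such as Atp5k, Ndufc1 and mt-Atp8.

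Both libraries labelled TfR1-deficient lay above both WT libraries in 13 of the 88 members tested (14.8%) and below both in 4 (4.55%). Over all genes tested these shares were 16.0% and 18.9%. The 12 nuclear subunit genes above were Ndufs7, Ndufs8, Ndufb2, Ndufb9, Ndufb10, Ndufa11, Sdhb, Cox5b, Cox7b, Atp5f1, Atp5g1 and Atp5o, and the 3 below were Ndufc2, Sdhd and Cox4i1. Of the 12, 5 have an identical stretch of 100 bases or more elsewhere in the genome (Ndufb2, Cox5b, Atp5f1, Atp5g1 and Atp5o). Among mitochondrial genes mt-Atp8 was above and mt-Co3 below.

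Complex I takes electrons from NADH through a chain of iron-sulfur clusters. Its 35 nuclear genes had a median log2 fold change of 0.12, with 27 positive and 8 negative. Over all 12536 genes tested, 6401 were positive. The complex I median was 0.0041 without WT 1 and 0.20 without WT 2. Ndufs1, which carries clusters in the NADH-oxidizing arm, was at 104 and 109 CPM in WT and at 99.8 and 115 CPM in TfR1_cKO, with groups that overlapped and a log2 fold change of 0.01 (95% interval -0.36 to 0.38). Ndufv1, which binds NADH, flavin and a cluster, was at 151 and 168 CPM in WT and 186 and 161 CPM in TfR1_cKO (log2 fold change 0.12, interval -0.26 to 0.51). Its partner Ndufv2 was at 124 and 158 CPM in WT and 171 and 125 CPM in TfR1_cKO, a replicate spread wider than the fitted difference of 0.07. Ndufs7 and Ndufs8 carry the clusters nearest the ubiquinone end of this chain, and in both genes the groups did not overlap. Ndufs7 was at 108 and 109.9 CPM in WT and 115 and 114 CPM in TfR1_cKO. Ndufs8 was at 100.4 and 104 CPM in WT and 108 and 114 CPM in TfR1_cKO. Both differences were small, with log2 fold changes of 0.08 (interval -0.25 to 0.41) and 0.12 (interval -0.22 to 0.45).

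The widest fitted differences in complex I belonged to accessory subunits. Ndufc1, a small membrane-arm subunit, was at 24.8 and 54.2 CPM in WT and at 71.5 and 50.7 CPM in TfR1_cKO, so that WT 2 exceeded TfR1_cKO 2 and the log2 fold change of 0.63 had an interval from -0.40 to 1.66. Ndufb2, another membrane-arm subunit, was at 4.17 and 5.91 CPM in WT and at 6.69 and 7.96 CPM in TfR1_cKO without overlap (0.54, interval -0.36 to 1.44). Ndufc2 went the other way, at 29.0 and 32.1 CPM in WT and 21.8 and 27.5 CPM in TfR1_cKO without overlap (-0.31, interval -0.86 to 0.24). Ndufb3 was at 15.4 and 20.8 CPM in WT and at 15.6 and 17.7 CPM in TfR1_cKO, within the WT range (-0.12, interval -0.79 to 0.54). The most abundant nuclear complex I genes per length, Ndufa6, Ndufa13 and Ndufb9, averaged 153, 139.6 and 139 CPM per kb of exon, and their log2 fold changes were 0.10, 0.33 and 0.15. In Ndufa13, at 114 and 194 CPM in WT and 223 and 164 CPM in TfR1_cKO, replicates of 1 genotype again differed more than the genotypes. In the annotation used, 30.2% of the exon length of Ndufa13 overlaps Tssk6 on the opposite strand, and the strand setting of the count is not given in the sources used here.

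Complex II, succinate dehydrogenase, oxidizes succinate with Sdha, passes the electrons through clusters in Sdhb and is anchored by Sdhc and Sdhd, which hold a heme. Its 4 genes had the only negative median apart from complex V (-0.09), with 1 gene positive (Sdhb) and 3 negative. Sdha was at 616 and 735 CPM in WT and 698 and 649.9 CPM in TfR1_cKO, a log2 fold change of 0.00 (interval -0.39 to 0.39). Sdhb was at 214 and 233 CPM in WT and 254 and 237 CPM in TfR1_cKO, without overlap (0.14, interval -0.21 to 0.49). Sdhc had the lowest value of all members, at 61.4 and 43.4 CPM in WT and 31.1 and 43.4 CPM in TfR1_cKO (-0.49, interval -1.16 to 0.17, unadjusted p = 0.117 from edgeR, adjusted p = 0.915). WT 2 and TfR1_cKO 2 were level in this gene, and the difference came from high WT 1 and low TfR1_cKO 1. The value was -0.75 without TfR1_cKO 2. Sdhd was at 55.1 and 46.4 CPM in WT and at 43.9 and 46.1 CPM in TfR1_cKO, without overlap but within 1 CPM between the nearest libraries (-0.17, interval -0.59 to 0.25).

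Complex III passes electrons from ubiquinol to cytochrome c. Its 8 nuclear genes had the highest median of any complex (0.26), which was 0.10 without WT 1 and 0.09 without TfR1_cKO 1, and in 0 of the 8 were the groups separate. Uqcrc1, a core protein and the most abundant nuclear subunit gene per length at 473 CPM per kb, was at 615 and 813 CPM in WT and 954 and 748 CPM in TfR1_cKO (0.25, interval -0.28 to 0.78). Uqcrfs1, the Rieske iron-sulfur protein, was at 36.7 and 25.3 CPM in WT and 34.8 and 41.8 CPM in TfR1_cKO (0.31, interval -0.33 to 0.94). Uqcrq, a small subunit that contacts cytochrome b, was at 65.2 and 106 CPM in WT and 141 and 89.9 CPM in TfR1_cKO (0.43, interval -0.39 to 1.25). Uqcr11 and Uqcr10, the next most abundant nuclear genes of the complex per length, at 90.5 and 134 CPM per kb, had log2 fold changes of 0.28 and 0.27. Identical stretches elsewhere in the genome cover 52.4% of the Uqcr11 transcript, so its count is uncertain. Uqcrb was lowest, at 36.1 and 28.3 CPM in WT and 21.3 and 33.6 CPM in TfR1_cKO (-0.23, interval -0.98 to 0.51), but 75.5% of its transcript has an identical stretch elsewhere in the genome, so its count is uncertain. Uqcrh, the hinge protein, was at 116 and 97.0 CPM in WT and 94.8 and 115 CPM in TfR1_cKO (-0.02, interval -0.46 to 0.43).

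Complex IV, cytochrome c oxidase, has several nuclear subunits with tissue isoforms. The ubiquitous isoform was counted in each case, while the partners reached few counts or none. Cox4i1 was at 308 and 283 CPM in WT and 254 and 274 CPM in TfR1_cKO, without overlap (-0.16, interval -0.51 to 0.19), and its partner Cox4i2 had 8 counts in all, 7 of them in TfR1_cKO 2. Cox6a1 was at 94.6 and 71.0 CPM in WT and 56.8 and 82.8 CPM in TfR1_cKO (-0.25, interval -0.88 to 0.39), and Cox6a2, the isoform of heart and skeletal muscle, had 5 counts. Cox7a2 and Cox7a2l were at 34.0 to 42.4 CPM and 318 to 367 CPM over the libraries, and Cox7a1, also a muscle isoform, had 7 counts. Cox7a2l shares identical stretches over 59% of its transcript. Cox8a was at 43.4 to 67.9 CPM, and Cox8b, Cox8c, Cox7b2 and Ndufa4l2 were at 0 in every library. A count of 0 allows up to 3 counts, or 0.174 to 0.277 CPM by library, for counting error only.

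Cox6b1 and Cox6b2, which encode alternative forms of a subunit on the outer face of complex IV, differed in count by far. Cox6b1 was at 54.5 and 77.3 CPM in WT and 54.1 and 64.3 CPM in TfR1_cKO (-0.16, interval -0.72 to 0.41). Cox6b2, best known from testis, had 2 counts over both WT libraries and 25 over both libraries labelled TfR1-deficient, a scaled ratio of 9.21 with an exact interval of 2.30 to 80.3 that covers counting error only. It did not pass the filter on low counts. It reached 10 summed counts only through the libraries in which it was higher, so the ratio is a description. With all genes of 10 or more summed counts fitted, 1.67% of all genes were higher at an unadjusted p under 0.05, and nothing is read from the presence of Cox6b2 among them. The other complex IV genes had log2 fold changes from -0.10 (Cox8a) to 0.25 (Cox5b, at 64.8 and 72.1 CPM in WT and 85.6 and 77.5 CPM in TfR1_cKO without overlap). Cox5b has identical stretches over 65.9% of its transcript. Cox6c, at 45.3 and 74.9 CPM in WT and 79.8 and 62.4 CPM in TfR1_cKO, had a value of 0.24, and Ndufa4, among the 3 most abundant nuclear genes of complex IV per length at 149 CPM per kb, a value of 0.11.

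Complex V consists of the F1 part with its catalytic sites (Atp5a1, Atp5b, Atp5c1, Atp5d and Atp5e), a peripheral stalk and a membrane part with a rotor. Its 15 genes had a median log2 fold change of -0.01, with 7 positive and 8 negative. The alpha subunit gene Atp5a1 was at 825 and 663 CPM in WT and 665 and 809 CPM in TfR1_cKO (-0.01, interval -0.48 to 0.45). The beta subunit gene Atp5b was at 861 and 586 CPM in WT and 519 and 723 CPM in TfR1_cKO (-0.22, interval -0.88 to 0.44). The gamma and delta subunit genes Atp5c1 and Atp5d had values of -0.08 and -0.21. In these 4 F1 genes WT 1 exceeded WT 2 and TfR1_cKO 2 exceeded TfR1_cKO 1. In the fifth, Atp5e, WT 1 was below WT 2, at 34.7 and 43.9 CPM in WT and 37.6 and 37.7 CPM in TfR1_cKO. Atp5k, which encodes the small e subunit of the membrane part, went the opposite way, at 9.58 and 24.5 CPM in WT and 27.7 and 13.6 CPM in TfR1_cKO (0.28, interval -1.15 to 1.71). Atp5j2, the f subunit gene, was at 57.4 and 85.3 CPM in WT and 89.3 and 82.1 CPM in TfR1_cKO (0.27, interval -0.30 to 0.83). The c subunit of the rotor is made from 3 genes with the same mature protein. Atp5g1 was at 103 to 112 CPM and Atp5g3 at 92.2 to 125 CPM over the libraries. Atp5g2 was at 33.6 and 19.3 CPM in WT and 20.6 and 31.4 CPM in TfR1_cKO, with identical stretches over 100% of its transcript.

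Per length, the mean level of nuclear subunit genes had a median of 58.8 CPM per kb and was highest for Uqcrc1, at 473 CPM per kb. The lowest value was that of Cox6b2, at 0.817 CPM per kb. That gene met the count limit only through the TfR1_cKO libraries, so no range is drawn from it. The median was 52.6 CPM per kb in complex I, 71.0 in complex II, 72.1 in complex III, 107 in complex IV and 63.8 in complex V. Medians over several genes vary less than single genes do, so their spread is not set against the differences within a complex. After Uqcrc1 the highest were Cox4i1 (412 CPM per kb), Cox7a2l (302), Atp5a1 (236) and Sdha (174), and 24 nuclear subunit genes exceeded 100 CPM per kb. Exon lengths are those of the union of annotated exons, which places a gene such as Ndufb2 (1.098 CPM per kb) low where the annotation holds long exons.

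**Figure D2:**
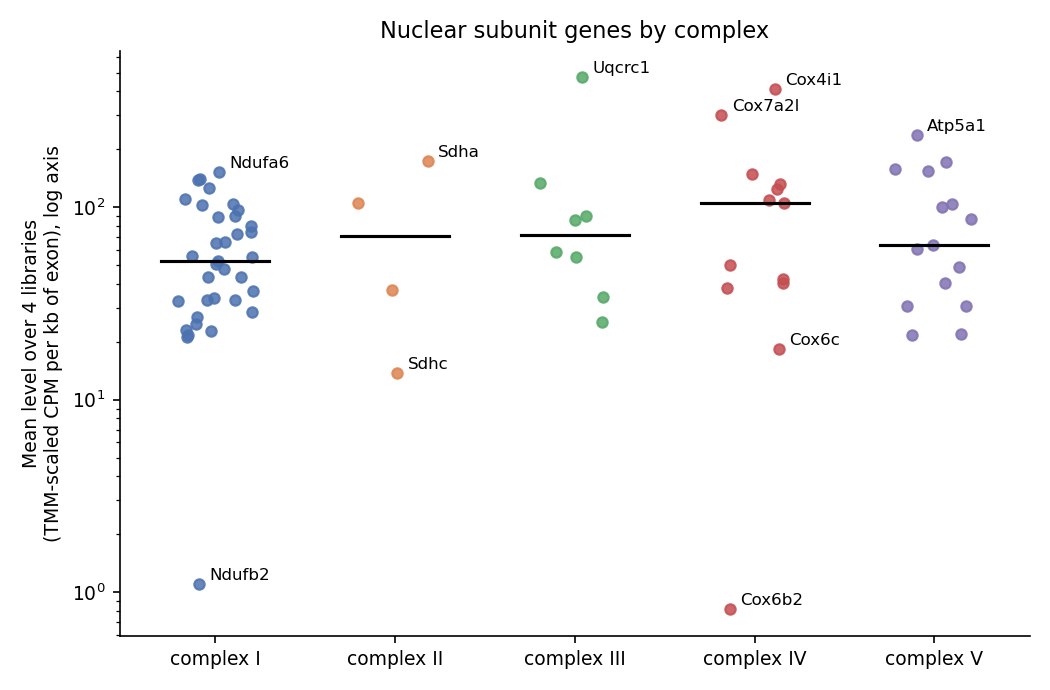
Mean level of each nuclear subunit gene over the 4 libraries (y axis, TMM-scaled CPM per kb of exon, log axis) by complex, with a point a gene and a bar for the median of the complex. The medians lie between 52.6 and 107 CPM per kb, and the highest gene is Uqcrc1 (473). Cox6b2 (0.817), the lowest, met the count limit only through the TfR1_cKO libraries.

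The 13 mitochondrial genes fell into 2 ranges of level. Those of the lower range had an identical copy of all or nearly all of their transcript in the nuclear genome. Genes with identical stretches over only part of it, such as mt-Co1, lay in the upper range. A stretch of mitochondrial sequence lies in the mouse nuclear genome on chromosome 1 (NCBIM37, chr1:24618374-24623023), and a read from such a stretch matches both places. Identical stretches of 100 bases or more covered 100% of mt-Co2, mt-Atp8, mt-Atp6, mt-Co3 and mt-Nd4l, 99.1% of mt-Nd3, 63.6% of mt-Nd4, 48.1% of mt-Co1 and 12.4% of mt-Nd2, and none of mt-Nd1, mt-Nd5, mt-Nd6 and mt-Cytb. The central 60 bases of mt-Co2 (chrM:7325-7384) and of its copy (chr1:24622033-24622092, minus strand) are shown because a read from within them matches both places equally, beside those of mt-Cytb (chrM:14687-14746) and its closest nuclear copy (chr4:79650435-79650494, plus strand), which differ in the 4 bases in capitals. All are from NCBIM37.
mt-Co2: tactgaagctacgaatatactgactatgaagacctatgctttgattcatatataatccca
Copy of mt-Co2 on chromosome 1: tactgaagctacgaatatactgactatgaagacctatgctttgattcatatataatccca
mt-Cytb: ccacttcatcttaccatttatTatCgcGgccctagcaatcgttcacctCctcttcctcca
Closest copy of mt-Cytb on chromosome 4: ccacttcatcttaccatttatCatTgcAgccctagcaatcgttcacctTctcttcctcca
The mt-Cytb copy aligned over 1143 bases at 92.9% identity, and the mt-Co2 copy over all 684 bases at 100%.

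The 6 genes copied whole or nearly so were at 0 to 20.6 CPM per kb in every library, and the other 7 at 134 to 3307 CPM per kb. The ranges did not overlap. mt-Cytb, the heme-bearing cytochrome b of complex III, was highest at 2582 and 3783 CPM in WT and 3692 and 2910.0 CPM in TfR1_cKO (log2 fold change 0.05, interval -0.55 to 0.66). mt-Co1, the catalytic subunit of complex IV with its heme groups, was at 1300.0 and 1624 CPM in WT and 1708 and 1396 CPM in TfR1_cKO (0.09, interval -0.39 to 0.56). Its neighbour mt-Co2, made from the same precursor RNA and part of the same enzyme core, was at 2.62 and 1.59 CPM in WT and 2.31 and 3.14 CPM in TfR1_cKO. mt-Co3, the third core gene, was at 5.48 and 6.37 CPM in WT and 4.09 and 4.96 CPM in TfR1_cKO, without overlap (-0.39, interval -1.26 to 0.48). mt-Nd3 had 3, 0, 5 and 8 counts and mt-Nd4l 12, 6, 12 and 5 counts in WT 1, WT 2, TfR1_cKO 1 and TfR1_cKO 2, too few to be tested. Gm10222, the chromosome 1 copy of mt-Nd4l, was listed as a gene of its own with 8, 15, 17 and 9 counts. How reads with several matches were handled is not given in the sources used here, so the levels of these genes relative to other genes are uncertain, and the part of the copies in the low counts was not tested.

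**Figure D3:**
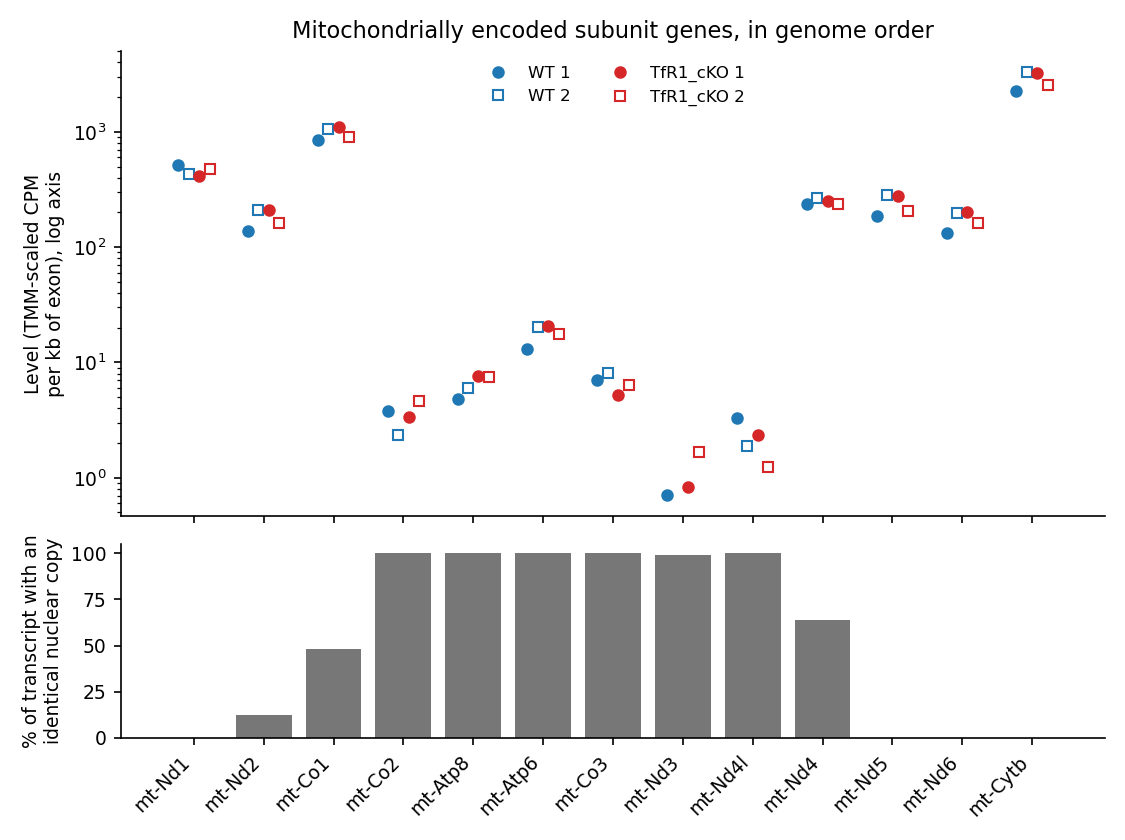
Upper panel, level of each mitochondrially encoded subunit gene in each library (y axis, TMM-scaled CPM per kb of exon, log axis), in genome order, with mt-Nd3 in WT 2 left out because its count is 0. Lower panel, percent of the transcript in identical stretches of 100 bases or more in the nuclear genome. The 6 genes at 99.1% or 100% lie at or under 20.6 CPM per kb.

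The remaining mitochondrial genes encode subunits of complexes I and V, and their fitted differences were smaller than their intervals. mt-Nd1 was at 489.7 and 416 CPM in WT and 395 and 455 CPM in TfR1_cKO (-0.09, interval -0.50 to 0.32), and mt-Nd4 at 328 and 371 CPM in WT and 348 and 325 CPM in TfR1_cKO (-0.05, interval -0.42 to 0.31). mt-Nd2 and mt-Nd5 had log2 fold changes of 0.09 and 0.05. mt-Nd6, the only subunit gene on the light strand, was at 69.3 and 103 CPM in WT and 105.1 and 83.9 CPM in TfR1_cKO (0.13, interval -0.48 to 0.75). The overlapping genes mt-Atp6 and mt-Atp8 of complex V were at 8.84 and 13.7 CPM and 0.982 and 1.22 CPM in WT, and at 14.1 and 12.05 CPM and 1.56 and 1.53 CPM in TfR1_cKO. Their log2 fold changes of 0.21 and 0.49 had intervals from -0.61 to 1.04 and from -0.87 to 1.85.

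Summed over genes, the nuclear and mitochondrial parts of the system did not change relative to each other by more than the replicate spread. The 75 nuclear genes took 0.911% and 0.940% of all counts in WT and 0.978% and 0.995% in TfR1_cKO. Both TfR1_cKO libraries thus lay above both WT libraries in this share. The same held for the summed CPM of the 74 tested, at 9226 and 9551 in WT and 9735 and 9773 in TfR1_cKO. This separation was not tested. The 13 mitochondrial genes took 0.521% and 0.695% of all counts in WT and 0.703% and 0.584% in TfR1_cKO. The log2 ratio of mitochondrial to nuclear counts was -0.81 and -0.44 in WT and -0.48 and -0.77 in TfR1_cKO. The mean was -0.62 ± 0.26 (SD, n = 2) in WT and -0.62 ± 0.21 (SD, n = 2) in TfR1_cKO. A two-sided exact permutation test gave p = 1.0, where 2 libraries against 2 cannot give less than 0.333. WT 1 and TfR1_cKO 2, the libraries with macrophage and proliferation markers, had the lower ratio in each genotype. In bulk RNA, a different share of cells of a type and a different amount of RNA per cell cannot be told apart, and the part of those markers in the ratio was not tested. mt-Cytb and mt-Co1 made up 73.6% to 77.2% of the mitochondrial counts in every library. How reads that match both a mitochondrial gene and a nuclear copy were counted is not given in the sources used here. The mitochondrial share, the ratio and this composition depend on it.

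**Figure D4:**
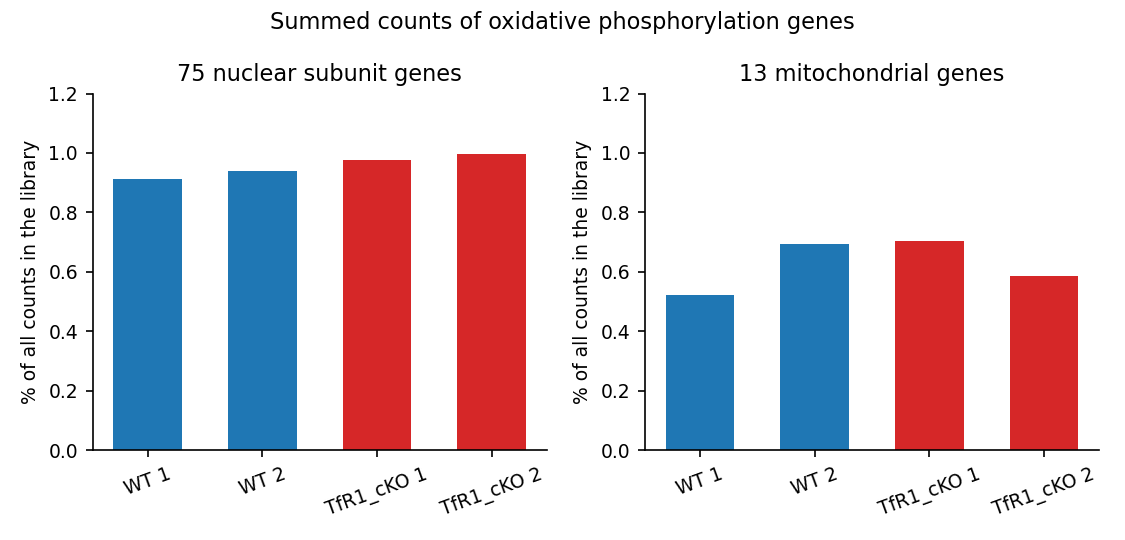
Summed counts of the 75 nuclear subunit genes (left) and the 13 mitochondrial genes (right) as a percent of all counts in each of the 4 libraries, 1 bar a library, blue for WT and red for TfR1_cKO. The nuclear share lies between 0.911% and 0.995% and is higher in both TfR1_cKO libraries than in both WT libraries. The mitochondrial share is lower in WT 1 (0.521%) and TfR1_cKO 2 (0.584%) than in the other libraries.

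Most subunit genes differed more between the 2 WT libraries than between genotypes. In 60 of the 74 nuclear and 9 of the 11 mitochondrial genes tested, the log2 difference between the WT libraries was larger in size than the genotype difference. The first compares single libraries and the second means of 2, so the first tends to be larger in any gene. The share over all genes was not counted. Between the WT libraries the median size was 0.32 in nuclear and 0.55 in mitochondrial genes. Between the TfR1_cKO libraries it was 0.21 and 0.29. Of the 85 genes, WT 1 and TfR1_cKO 2 were both below the other 2 libraries in 36 (42.4%) and both above them in 21 (24.7%). Over all genes tested, 25.5% lay below and 22.9% above. The mitochondrial genes were below in 7 of 11, complex I in 17 of 35 with 4 above, and complex V in 4 of 15 with 6 above. As a description across genes, which are not replicates, WT 1 minus WT 2 and TfR1_cKO 2 minus TfR1_cKO 1 had a Pearson r of 0.86 over the 74 nuclear genes and 0.61 over all genes tested. Neither exon length (Spearman 0.10) nor GC content (Spearman -0.06) followed this difference across nuclear members. The macrophage and proliferation markers given above were high in the same libraries, WT 1 and TfR1_cKO 2, and their part was not tested. The erythroid markers did not follow these libraries, being lowest in WT 1 and highest in TfR1_cKO 2.

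Members of complex V stood at both ends of this difference. Atp5k was lowest in WT 1 and TfR1_cKO 2, by 1.34 and 1.02 on the log2 scale relative to the other library of the genotype, and the next lowest by the mean of these differences were Ndufc1, Uqcr11, Ndufa7, Ndufa3 and Ndufa1. Cox5a, a matrix-side subunit of complex IV, was highest in them, at 33.5 CPM in WT 1 and 35.5 CPM in TfR1_cKO 2 against 15.1 CPM in WT 2 and 21.1 CPM in TfR1_cKO 1, followed by Atp5g2, mt-Co2, Cox8a, Atp5b and Uqcrb. In the annotation used, 38.7% of the exon length of Cox5a overlaps Gm17596 on the opposite strand.

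**Figure D5:**
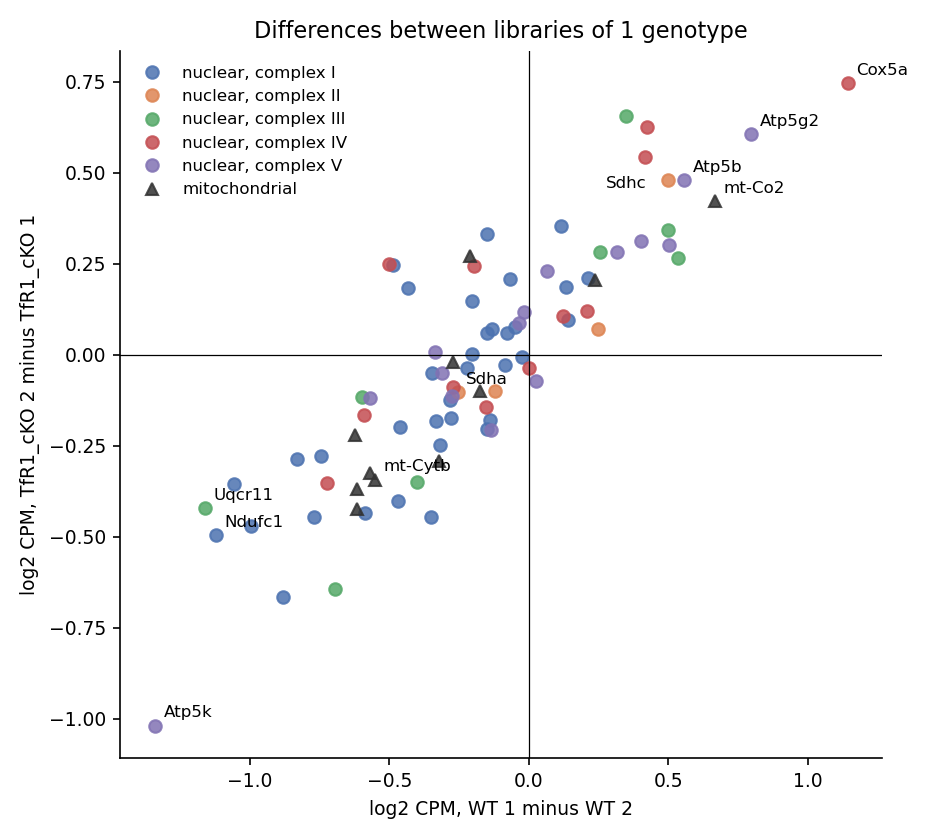
Log2 CPM of WT 1 minus WT 2 (x axis) and of TfR1_cKO 2 minus TfR1_cKO 1 (y axis) for the 85 subunit genes tested, coloured by complex, with triangles for mitochondrial genes. Most genes lie in the lower left or upper right, from Atp5k to Cox5a, so that the same members were low or high in WT 1 and TfR1_cKO 2.

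Nuclear subunit genes are known targets of the transcription factors NRF1 and GABP (an ETS factor) and, in part, of YY1. The promoters of Atp5k, Ndufc1 and Cox5a, at either end of the library difference, are shown for this reason, from 250 bases before to 50 after the start of transcription, from RefSeq on GRCm38.p6. Capitals mark the letters searched, which were GCGCATG or CATGCGC for NRF1, CCGGAAG or CTTCCGG for ETS factors and GATGGCG or CGCCATC for YY1.
Atp5k (chr5:108434350-108434649, minus strand): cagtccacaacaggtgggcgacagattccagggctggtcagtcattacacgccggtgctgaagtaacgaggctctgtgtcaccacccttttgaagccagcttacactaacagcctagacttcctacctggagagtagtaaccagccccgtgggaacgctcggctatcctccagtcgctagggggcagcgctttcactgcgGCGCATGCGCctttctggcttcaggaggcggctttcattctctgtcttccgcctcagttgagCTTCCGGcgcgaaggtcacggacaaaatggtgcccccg
Ndufc1 (chr3:51408906-51409205, minus strand): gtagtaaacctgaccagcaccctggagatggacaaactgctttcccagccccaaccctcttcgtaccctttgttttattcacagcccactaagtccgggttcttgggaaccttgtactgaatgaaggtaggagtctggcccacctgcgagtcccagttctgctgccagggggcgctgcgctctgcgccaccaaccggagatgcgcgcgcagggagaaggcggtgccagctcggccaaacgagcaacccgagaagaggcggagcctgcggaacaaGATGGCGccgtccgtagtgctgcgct
Cox5a (chr9:57520982-57521281, plus strand): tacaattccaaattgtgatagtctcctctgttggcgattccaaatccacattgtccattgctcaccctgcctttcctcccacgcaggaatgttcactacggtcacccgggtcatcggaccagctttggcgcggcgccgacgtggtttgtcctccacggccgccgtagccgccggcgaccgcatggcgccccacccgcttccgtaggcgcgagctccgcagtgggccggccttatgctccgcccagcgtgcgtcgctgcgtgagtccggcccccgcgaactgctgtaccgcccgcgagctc
The Atp5k window held the NRF1 letters on both strands, overlapping in their shared CATG, and 1 separate ETS match. The Ndufc1 window held 1 YY1 match and the Cox5a window none of the 3 motifs. Of the 75 nuclear subunit genes 64 had a promoter in the table. NRF1 letters were in 13 of the 64 (20.3%), against 8.48% of the 8010 genes tested that had a promoter and 4.41% of all 27025 genes with one. ETS letters were in 16 (25%), against 21.5% and 9.93%. YY1 letters were in 9 (14.1%), against 7.93% and 4.04%. Complex I held the YY1 letters in 6 of 31 promoters and the ETS letters in 4, and complex V the ETS letters in 5 of 14. These matches are a description of letters in a window, without a test.

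No difference between genotypes was detected in the genes of these factors. Nrf1 was at 149 and 188 CPM in WT and 165 and 165 CPM in TfR1_cKO. Gabpa, the DNA-binding subunit of GABP, was at 68.6 and 57.0 CPM in WT and 58.2 and 41.0 CPM in TfR1_cKO (log2 fold change -0.34, standard error 0.22). Of the 8 regulators tested, among them Myc and Ppargc1b, 0 passed an unadjusted p of 0.05, 6 were negative and the median was -0.05. Both TfR1_cKO libraries lay below both WT libraries in 1 (Myc) and above in 1 (Gabpb1), beside 18.9% and 16.0% of all genes tested. Myc was at 481 and 436 CPM in WT and 386 and 367 CPM in TfR1_cKO (-0.28, standard error 0.14). The coactivator gene Ppargc1a was at 0.375 CPM or less in every library.

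Other genes of the system are not reached by the symbols. Of 6 further genes tested (Cyc1, Cycs, Ndufab1, Usmg5, 2010107E04Rik and Atpif1), 0 passed an unadjusted p of 0.05. Their median log2 fold change was 0.27, and 5 were positive, where 6401 of all 12536 genes tested were. In 3 of the 6 (Cyc1, Cycs and Atpif1) both libraries labelled TfR1-deficient lay above both WT libraries, where 16.0% of all genes tested did. Cyc1, the cytochrome c1 of complex III with its heme, was at 78.7 and 41.9 CPM in WT and 81.5 and 94.2 CPM in TfR1_cKO without overlap (0.54, standard error 0.32). Cycs, which encodes cytochrome c, was at 116 and 124 CPM in WT and 146 and 149 CPM in TfR1_cKO without overlap (0.30, standard error 0.13, adjusted p = 0.911 from edgeR). Of 48 assembly factors tested, 1 was higher and 0 lower at an unadjusted p under 0.05, with a median of 0.03. The one that passed was Timmdc1, a complex I assembly factor, at 9.82 and 14.5 CPM in WT and 18.3 and 23.9 CPM in TfR1_cKO (0.79, standard error 0.31, adjusted p = 0.911 from edgeR).

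Of 31 genes for the replication and expression of mitochondrial DNA, 2 were lower and 0 higher at an unadjusted p under 0.05, with a median of -0.01. Pnpt1, which encodes the polynucleotide phosphorylase of mitochondrial RNA turnover, was at 46.7 and 45.3 CPM in WT and 32.7 and 31.0 CPM in TfR1_cKO (-0.53, standard error 0.16, adjusted p = 0.911 from edgeR). Mterf3, a regulator of mitochondrial ribosome biogenesis, was at 24.9 and 30.2 CPM in WT and 16.6 and 19.9 CPM in TfR1_cKO (-0.59, standard error 0.23, adjusted p = 0.911 from edgeR). Beside the 1 of 48 assembly factors higher stand 1.88% of all genes tested, and beside these 2 of 31 lower 3.34%. Tfam, which packages mitochondrial DNA and takes part in starting its transcription, was at 58.4 and 60.8 CPM in WT and 64.5 and 55.7 CPM in TfR1_cKO.

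Over the 11 genes reached by the symbols whose subunits have an iron cofactor, 0 passed an unadjusted p of 0.05 in edgeR. A positive fitted value was found in 9 of them, where 6401 of all 12536 genes tested had one. The median log2 fold change of the 11 was 0.08. In 3 (Ndufs7, Ndufs8 and Sdhb) both libraries labelled TfR1-deficient lay above both WT libraries, and in 1 (Sdhd) below, beside 16.0% and 18.9% of all genes tested. The 95% interval lay within 2-fold either way in 10 of the 11, with Sdhc as the exception. Cyc1, whose product also has a heme, is not reached by the symbols and is not among the 11 (0.54, given above). The messenger RNA of these subunits does not measure whether their clusters or hemes were filled.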

How the data were processed

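RNA-seq of 4 Treg libraries was used. The deposited values are raw read counts for each Ensembl gene, without normalization by the authors. Processing notes name Trim Galore 0.6.7, STAR 2.7.9a, featureCounts and mm10, whereas the paper's methods name mm9. The strand setting, multi-mapping and annotation release are not given in the sources used here. No column was left out, and symbols were found for 32799 of 47729 identifiers. Members and gene lists were chosen with earlier results of these data known.

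Genes that filterByExpr kept were tested after TMM scaling in edgeR 4.0.16 (quasi-likelihood, genotype only, R 4.3.3), with Benjamini-Hochberg adjustment and a threshold of 0.05. DESeq2 1.42.0, other scalings and filters, a replicate block and omission of libraries were alternatives. Standard errors are the fold change over the square root of F. Intervals are at 95%. CPM are TMM-scaled, and 2 was the prior count for log2 CPM. Named members were all mitochondrial genes, isoform groups, iron cofactor subunits and, in each nuclear complex, the 3 most abundant per length, the 2 highest and the 2 lowest fold changes, and others were named after their values were seen. Exon lengths, positions and overlaps are from GENCODE vM1 on NCBIM37. Identical stretches of 100 or more bases were found with BLAST 2.17.0, and 21 nuclear subunit genes had such a stretch. The fits were tested on simulated data. Totals were 10841939 to 17278448 counts, and the common biological coefficient of variation was 0.323.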

Additional observations from a re-analysis of the deposited data

How the results depend on the processing

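Of the counts of members passing a threshold, 0 in each, the adjusted count stayed at 0 under every alternative but the crossed pairing. The labels do not say whether libraries of the same replicate number belong together. Deviations of same-numbered libraries had a correlation of -0.61 across genes, which does not settle this. With a replicate block 0 members passed in either direction, with medians of 0.087 for nuclear and 0.088 for mitochondrial genes. A crossed pairing of WT 1 with TfR1_cKO 2 and WT 2 with TfR1_cKO 1, chosen after seeing the data, gave 8 higher and 2 lower members without adjustment and 1 changed with it, where 8.48%, 9.41% and 3.50% of all genes did. The filter of 10 summed counts gave 1 higher member, Cox6b2, which passed it only through the higher group.

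Leaving out 1 library moved the unadjusted count of higher members from 0 to 8 (without WT 2, where 1.78% of all genes were higher) and of lower members from 0 to 1 (without TfR1_cKO 2, where 2.42% of all genes were lower). The median ranged from 0.012 to 0.15 for nuclear genes and from -0.11 to 0.35 for mitochondrial genes, and the genotype difference of the log2 ratio of mitochondrial to nuclear counts from -0.19 to 0.19. By complex it ranged from 0.0041 to 0.20 (I), -0.098 to -0.075 (II), 0.094 to 0.27 (III), -0.035 to 0.069 (IV) and 0.016 to 0.081 (V). Without both WT 1 and TfR1_cKO 2, which leaves no test, the medians were 0.050 for complex I, -0.084 for complex II, 0.13 for complex III, -0.058 for complex IV, -0.0058 for complex V, 0.019 for all nuclear and -0.019 for mitochondrial genes. Scaling by total counts alone gave -0.053 for complex II and 0.045 over all genes. Other scalings and filters moved no median by more than the replicate spread, although that of complex V changed sign about 0. The causes were not tested.

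Of 53 named members the fitted sign changed in 20 without WT 1 and in 15 without TfR1_cKO 1, and in at most 4 under other scalings and filters. mt-Nd3, mt-Nd4l and Cox6b2 had too few counts for the test.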
